A study of Mus musculus with 9 samples.

Results

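Chemokines are small secreted proteins that direct the movement of leukocytes and some other cells, and chemokine receptors are the G protein-coupled receptors that read them. The ligands are divided by the spacing of their first cysteines into CC (Ccl), CXC (Cxcl), C (Xcl) and CX3C (Cx3cl) families, with receptors named to match, and the atypical receptors (Ackr) bind chemokines without classical G protein signalling and clear or store them. In the ovary, chemokines are known for bringing macrophages and other leukocytes into the follicle around ovulation and into the corpus luteum as it regresses. The genes described here are the protein-coding genes of the mouse annotation GENCODE M21 whose symbols begin with Ccl, Ccr, Cxcl, Cxcr, Xcl, Xcr, Ackr, Cx3cl or Cx3cr followed by a digit. There were 67 of them among the 55536 genes of the deposited tables, namely 44 ligands, 19 receptors and 4 atypical receptors under 62 symbols. Of these, 7 are copies on unplaced scaffolds of the genome.

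The data are bulk RNA-seq of dissected mouse ovaries, and the study asks which genes are expressed abnormally in tumours of granulosa cells of the adult type. Wild-type ovaries (3 samples, FOXL2 WT/WT) were set against ovaries of mice heterozygous for the C134W change in the forkhead transcription factor FOXL2 (FOXL2 WT/C134W), labelled either as hyperplasia (3 samples) or as granulosa cell tumour (3 samples). Both lesion groups carry the same genotype, so a contrast with wild type holds genotype and lesion together. The labels give no strain, age or sampling time, and do not say whether samples came from separate animals, so a p-value here speaks only to the spread among these samples, which may be technical. Hyperplasia 3 and tumour 3 share the stem of their title.

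Library totals ran from 11661820 (tumour 3) to 20890487 (wild type 1) counts. Levels are in counts-per-million (CPM) units after scaling with edgeR's trimmed-mean method (TMM). Log2 fold changes, their standard errors (SE) and adjusted p-values come from edgeR's quasi-likelihood test with Benjamini-Hochberg (BH) adjustment over 16213 genes, with a threshold of 0.05. Wild type 1 and tumour 2 stood apart from the other libraries of their groups: their correlations with those libraries, over log2(CPM + 1), were 0.898 to 0.922, against 0.959 to 0.975 for all other pairs within a group. Granulosa markers were present in every group, with summed levels of 1590 to 3119 CPM in the wild-type libraries, 920 to 2793 in hyperplasia, and 3705 to 4564 in the tumours, and Foxl2 averaged 176 ± 28.6, 217 ± 109 and 294 ± 83.7 CPM (SD, n = 3 in each group). RNA of a whole ovary mixes many cell types, so fewer cells of a type and less RNA per cell cannot be told apart in any value below.

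Several of the genes are near copies, and the Ccl21 family is the strongest case. Ccl21 is the ligand that lymphatic vessels and lymphoid tissue use to attract Ccr7-bearing dendritic cells and T cells. The coding sequence of Ccl21a and those of Gm21541, Gm13304, Ccl21b and Gm10591 each held 402 bases and differed from Ccl21a at the same 2 positions, T84A and C194T, counted from 1 at the first coding base (99.5% identity). The stretches around these positions are shown because they are the coding bases by which a read could tell Ccl21a from those copies, with the differing base in capitals (GRCm38, Ccl21a on the minus strand at chr4:42773727-42773855 and chr4:42773523-42773657, Gm21541 on the plus strand at chr4:41903748-41903876 and chr4:41903946-41904080, each stretch crossing an intron).
Ccl21a, position 84: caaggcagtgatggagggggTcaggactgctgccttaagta
Gm21541, position 84: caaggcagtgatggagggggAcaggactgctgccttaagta
Ccl21a, position 194: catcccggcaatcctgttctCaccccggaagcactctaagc
Gm21541, position 194: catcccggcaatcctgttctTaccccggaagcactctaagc
Ccl21a shared 71.6% of its 50-base transcript windows with Gm21541, the largest share with a single gene. Reads from such windows fit several copies equally, and the authors' counting shares them out as estimates, so each copy's own value is uncertain and the sum over copies is given beside it. In all, 13 of the 67 genes were treated as near copies. They shared at least 10% of their 50-base windows with a single other gene, or lay on an unplaced scaffold, where no sequence was compared. Of the 13, 4 entered the test (Ccl19, Ccl21a, Ccl27a and the Ccl21b copy on scaffold GL456350.1). Ccl19 shared 52.0% of its windows with Gm2564, and Ccl27a 28.4% with Gm20878. Ackr1 shared 20.4% with Cadm3, an overlapping gene on the same strand. Of the genes that overlap an exon of another gene on the opposite strand, Cxcl16 had the largest share among the tested ones (18.3% of its exonic bases, with Zmynd15). Cxcl10 had 5.91%, with Art3. Whether counting used the strand is not given in the labels or notes, so reads of such partners could be mixed.

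Of the 67 genes, 37 passed the low-count filter (24 ligands, 10 receptors and 3 atypical receptors). In tumours compared with wild-type ovaries the fitted level was lower for 31 of the 37 and higher for 6, with a median log2 fold change of -1.30. Over all genes tested the share that was lower was 49.1% and the median 0.01. Only Ccl7 passed the threshold, and it fell. That is 1 of 37, where 1.6% of all genes tested passed (259 genes, 57 higher and 202 lower). At an unadjusted p under 0.05, 15 of the 37 were lower (11.7% of all genes were) and 1, Cxcl14, was higher (8.41% of all genes were). Groups did not overlap for 18 lower genes (13.4% of all genes) and for Cxcl14 as the only higher one (10.6% of all genes). Another test, the DESeq2 Wald test, called 13 of the 37 (10.8% of all genes), and limma-voom called 0 (1.67% of all genes), so the count depended on the method. Without the low-count filter edgeR called 5 of 62 (2.5% of all genes), and limma on log2(TPM + 1) called 2 of 37 (2.64% of all genes).

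**Figure D1:**
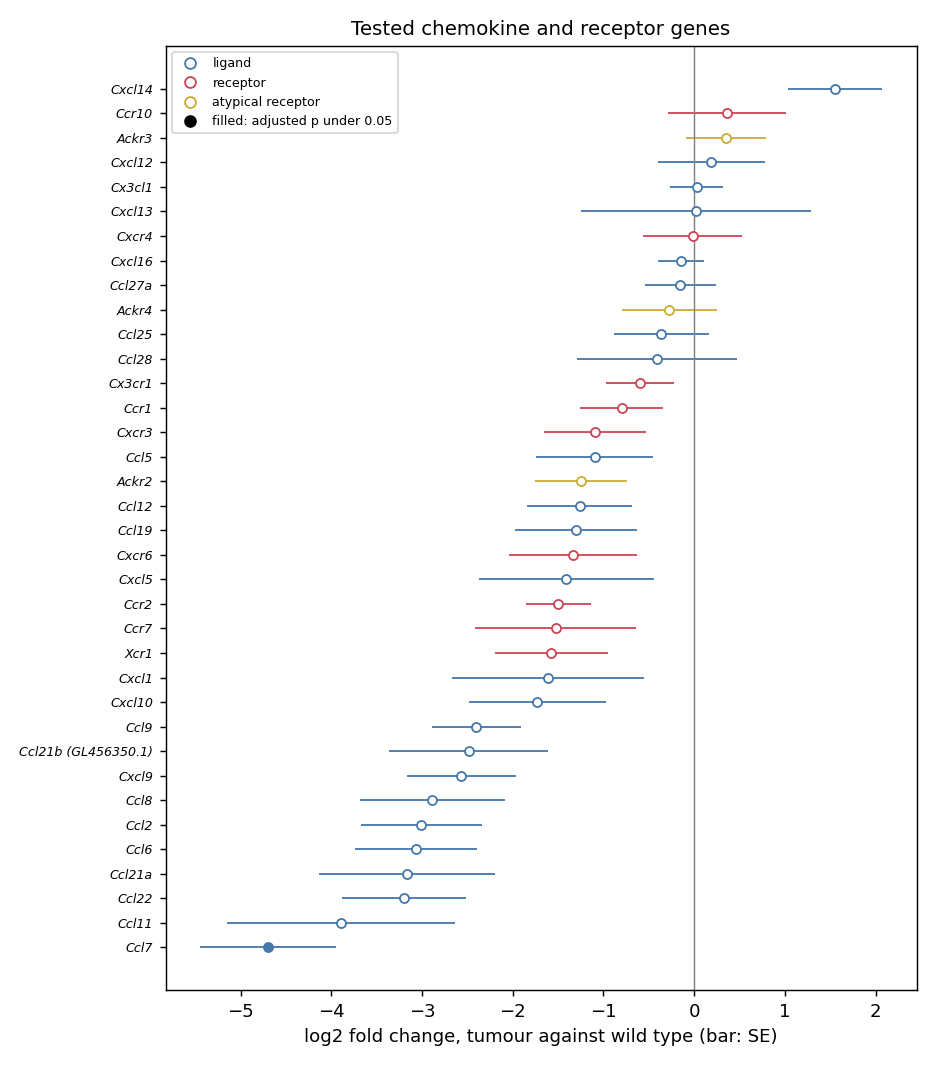
Log2 fold change, tumour against wild type, of 36 of the tested chemokine ligand, receptor and atypical receptor genes, with the SE of the edgeR fit as bars and filled points for adjusted p under 0.05. Of these genes 30 lie below 0, only Ccl7 is filled, and Cxcl14 has the highest value.

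The CC chemokines grouped here as monocyte-attracting, taken with receptor genes, had lower fitted levels in tumours throughout the tested part of the group. Of the 9 genes in it (Ccl2, Ccl6, Ccl7, Ccl8, Ccl9, Ccl12, Ccr1, Ccr1l1 and Ccr2), 8 were tested, all 8 were lower with a median log2 fold change of -2.64, and for 6 the groups did not overlap (13.4% of all genes were lower in that way). Ccl7 (chr11:82045712-82047525, plus strand) encodes MCP-3, a ligand of Ccr2. It was measured at 1.34, 2.65 and 7.01 CPM in the wild-type libraries, 1.28, 1.09 and 1.58 CPM in hyperplasia, and 0.132, 0.0975 and 0.168 CPM in the tumours. Every tumour lay below every other library, and the 3 tumours held 5 counts together. Ccl7 fell from 3.67 ± 2.97 to 0.133 ± 0.0352 CPM (SD, n = 3; log2 fold change -4.70, SE 0.75, edgeR quasi-likelihood test, BH adjusted p = 0.0356). Without wild type 1 and tumour 2 together its log2 fold change was -4.98 and no longer passed (edgeR, BH adjusted p = 0.0599). Leaving out single libraries ended the call for wild type 2 (edgeR, BH adjusted p = 0.0837), wild type 3 (0.0685), hyperplasia 2 (0.0542) and tumours 1, 2 and 3 (0.124, 0.0563 and 0.0947).

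Ccl2 (chr11:82035571-82037453), MCP-1, the main Ccr2 ligand, stood at 3.08, 4.36 and 9.54 CPM in wild type, 4.82, 1.74 and 2.35 CPM in hyperplasia and 0.927, 0.293 and 0.840 CPM in tumours. All tumours were below all other libraries, and the hyperplasia values overlapped wild type (log2 fold change, tumour against wild type, -3.01, SE 0.67, edgeR, BH adjusted p = 0.061). Ccl8 (chr11:82115185-82116799), a ligand that acts on Ccr8 in mice, measured 3.23, 7.60 and 1.15 CPM, then 1.23, 2.46 and 1.2 CPM, and 0.199, 0.585 and 0.840 CPM in the same group order. Again the tumours did not overlap either other group, while wild type itself spanned a wide range (-2.89, SE 0.80, edgeR, BH adjusted p = 0.0945). Ccl12, another Ccr2 ligand found in mice, averaged 1.11 ± 0.356 CPM in the wild-type libraries, 0.721 ± 0.227 in hyperplasia, and 0.448 ± 0.268 in the tumours, and its groups overlapped.

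Ccl6 (chr11:83587882-83593087) and Ccl9 (chr11:83572919-83578636) are rodent chemokines made largely by macrophages and other myeloid cells, and act through Ccr1. Ccl6 had the highest level per length of the monocyte-attracting ligands in wild type (41.9 TPM, a transcript level scaled for gene length and depth). Its CPM values were 11.8, 32.3 and 21.2 CPM in wild type, 17.2, 41.6 and 12.3 CPM in hyperplasia and 1.46, 4.88 and 1.51 CPM in tumours. The highest tumour value was below the lowest value of either other group (-3.07, SE 0.67, edgeR, BH adjusted p = 0.0592). Against hyperplasia the log2 fold change was -3.19 (SE 0.67, edgeR, BH adjusted p = 0.0943). Ccl9 was measured at 4.92, 8.66 and 8.34 CPM in wild type, 4.50, 7.90 and 7.96 CPM in hyperplasia and 0.662, 1.56 and 1.93 CPM in tumours. In CPM, wild type and hyperplasia covered the same range and the tumours lay below both (-2.40, SE 0.49, edgeR, BH adjusted p = 0.0503, just outside the threshold). In TPM the groups overlapped, with tumour 3 (3.74) above wild type 1 (1.91) and hyperplasia 1 (2.68). Over the alternative runs the BH adjusted p of Ccl9 ranged from 7.28e-05 (DESeq2 Wald test) to 0.344 (edgeR or limma).

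Ccr2 and Ccr1, the tested receptors of the monocyte-attracting group, also averaged lowest in tumours. Ccr2, the receptor by which inflammatory monocytes leave the marrow and enter tissue (chr9:124101950-124113557), was at 11.9, 16.6 and 6.67 CPM in wild type, 11.5, 11.1 and 9.87 CPM in hyperplasia and 4.17, 3.71 and 4.54 CPM in tumours. The tumours were tightly grouped and did not overlap the rest (-1.50, SE 0.36, edgeR, BH adjusted p = 0.069). Ccr1 (chr9:123962124-123968692), a receptor of monocytes and neutrophils, was at 1.09, 1.53 and 2.24 CPM in wild type, 2.62, 2.46 and 3.55 CPM in hyperplasia and 0.861, 1.27 and 0.672 CPM in tumours. Its hyperplasia values lay above both other groups, and only the difference between tumour and hyperplasia had an unadjusted p under 0.05 (-1.62, SE 0.46, edgeR, BH adjusted p = 0.18). Of the T cell and monocyte attractants made by activated lymphocytes and macrophages, Ccl5 averaged 2.23 ± 1.85, 2.07 ± 0.668 and 1.04 ± 0.435 CPM with overlap of tumours and wild type. Ccl3 and Ccl4 were too low to test, with 26, 28 and 5 counts for Ccl3 and 26, 24 and 8 counts for Ccl4 over the libraries of wild type, hyperplasia and tumour.

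**Figure D2:**
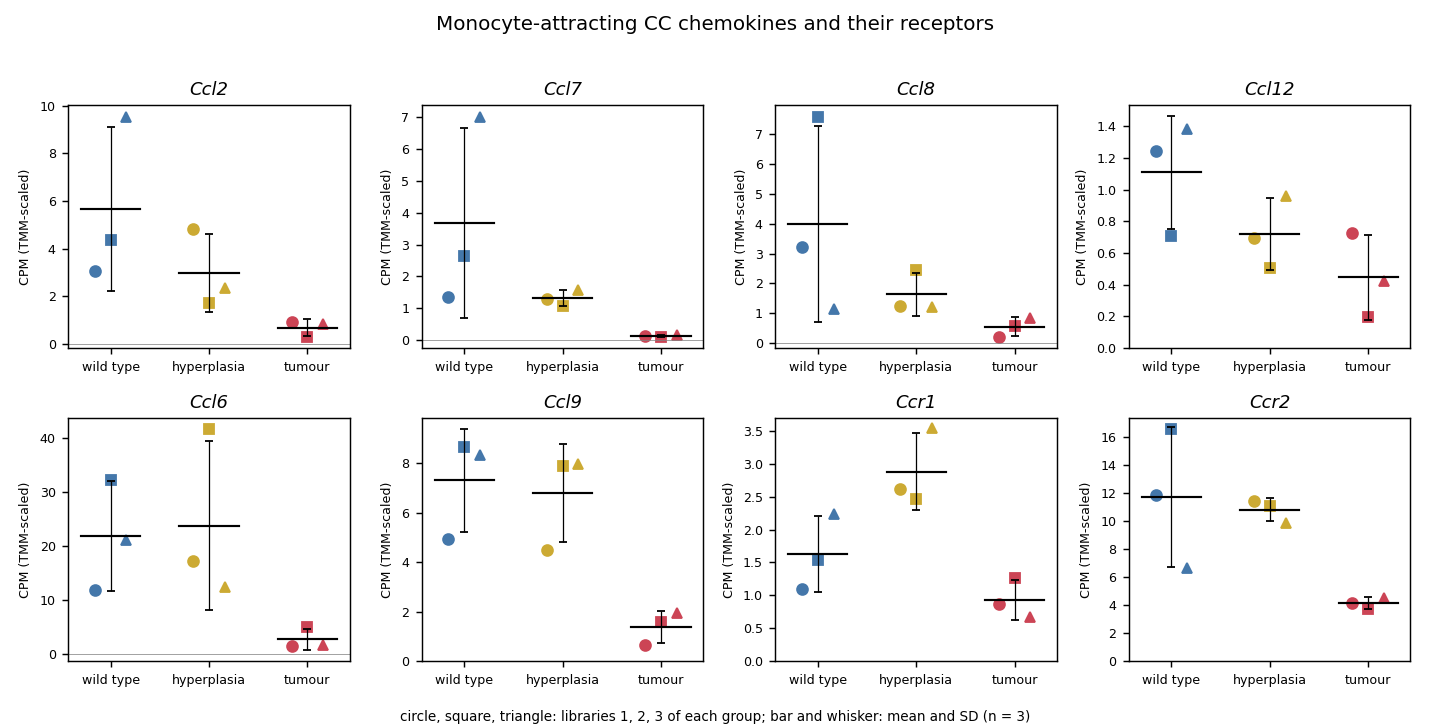
CPM of 6 CC ligands grouped as monocyte-attracting and of the receptors Ccr1 and Ccr2 in each of the 9 libraries, with the mean (horizontal line) and SD (whisker) of each group of 3. For every gene shown except Ccl12 and Ccr1 the 3 tumours lie below all wild-type and hyperplasia libraries, and Ccl7 is at 0.0975 to 0.168 CPM there.

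Most of these genes sit in arrays of neighbours. The array at chr11:82035571-82305690 holds Ccl2, Ccl7, Ccl11, Ccl12, Ccl8 and Ccl1. Its 5 tested genes were all lower in tumours than in wild type, with a median log2 fold change of -3.01 (range -4.70 to -1.26), and 4 of them had no overlap (13.4% of all genes were lower in that way). In the neighbouring array at chr11:83525778-83664683 (Ccl5, Ccl9, Ccl6, Ccl3, Ccl4) the 3 tested genes were lower, with a median of -2.40. The ligand array at chr5:90759360-90905938, which holds the neutrophil attractants, had 2 tested genes of 5, both lower and both overlapping wild type.

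Markers of leukocytes moved with these values. The summed level of 5 pan-leukocyte markers was 136 to 150 CPM in the wild-type libraries, 130 to 204 in hyperplasia, and 39.6 to 67.6 in the tumours. All 5 were lower in tumours than in wild type, and Cd53 and Ptprc (CD45) passed the threshold, Ptprc from 21.3 ± 2.69 to 6.80 ± 0.36 CPM (log2 fold change -1.65, SE 0.27, edgeR, BH adjusted p = 0.0356). The 12 macrophage markers summed to 483 to 492, 422 to 494 and 323 to 343 CPM, with 11 of 12 lower in tumours, a median log2 fold change of -1.19, and 1 called, Itgam (CD11b), from 17.0 ± 3.34 to 5.43 ± 0.654 CPM (-1.65, SE 0.31, edgeR, BH adjusted p = 0.0451). No pan-leukocyte or macrophage marker was at 0 in a whole group. Markers of other cell types also differed. Beside the marker counts given here, 49.1% of all genes tested were lower in tumours than in wild type and 1.25% were called lower in edgeR. At an unadjusted p under 0.05, 11.7% were lower, and the DESeq2 Wald test called 10.8% and limma-voom 1.67%. Luteal markers summed to 7389 to 19319 CPM in wild type, 6343 to 11960 in hyperplasia and 1001 to 1550 in tumours, with 7 of 7 lower in tumours than in wild type and 3 called. All 7 oocyte markers (4 called), all 5 tested adipocyte markers (1 called) and all 8 smooth muscle and pericyte markers (0 called in edgeR and in limma-voom, 6 in DESeq2, 7 with an unadjusted p under 0.05) were lower as well. The part of any of these markers in the chemokine values was not tested.

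The Ccr7 axis, which guides dendritic cells and lymphocytes along lymphatic vessels, held the chemokine transcripts with the highest level per length in the wild-type ovary, the Ccl21 genes of the symbol rule (556 TPM when summed). Ccl21a (chr4:42772860-42773993, minus strand) was measured at 227, 63.0 and 97.7 CPM in wild type, 142, 63.9 and 58.9 CPM in hyperplasia and 21.2, 0.683 and 21 CPM in tumours. The copy annotated as Ccl21b on scaffold GL456350.1 took 272, 72.7 and 94.4 CPM, 116, 58.6 and 90.5 CPM, and 37.5, 2.24 and 38.3 CPM. Both copies were lower in every tumour than in any other library, and tumour 2 was far below the other tumours. Log2 fold changes, tumour against wild type, were -3.17 for Ccl21a (SE 0.97, edgeR, BH adjusted p = 0.118) and -2.49 for the scaffold copy (SE 0.88, edgeR, BH adjusted p = 0.159).

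Summed over 9 genes of the Ccl21 family, 3 of them outside the symbol rule (Gm13304, Gm21541 and Gm10591) and 4 of them scaffold genes joined by name without a comparison of sequence, the reads averaged 295 ± 201 CPM in wild-type ovaries, 194 ± 97.5 in hyperplasia and 40.4 ± 32.5 in the tumours. The sum gave a log2 fold change of -2.87 between tumour and wild type (SE 0.94, edgeR, BH adjusted p = 0.135) and -2.26 between tumour and hyperplasia (edgeR, BH adjusted p = 0.316). Without tumour 2 the value for Ccl21a was -2.61 (edgeR, BH adjusted p = 0.0734), and without tumour 2 and wild type 1 it was -1.96 (0.100 in the same test). The split between copies varied from library to library. Ccl21a held 38.7% to 51.3% of the summed reads in wild type and hyperplasia and 25.0% to 36.1% in tumours, and Gm21541 held 4.17%, 16.3% and 15.3% in wild type 1, wild type 3 and hyperplasia 1 and 0 in the other 6 libraries. Of the other members of the axis, Ccl19 averaged 0.993 ± 0.26, 0.747 ± 0.425 and 0.412 ± 0.275 CPM. The receptor Ccr7 itself was scarce, at 0.762 ± 0.22, 0.949 ± 0.479 and 0.275 ± 0.25 CPM. Both had tumours below all wild-type libraries, with unadjusted p above 0.05.

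**Figure D3:**
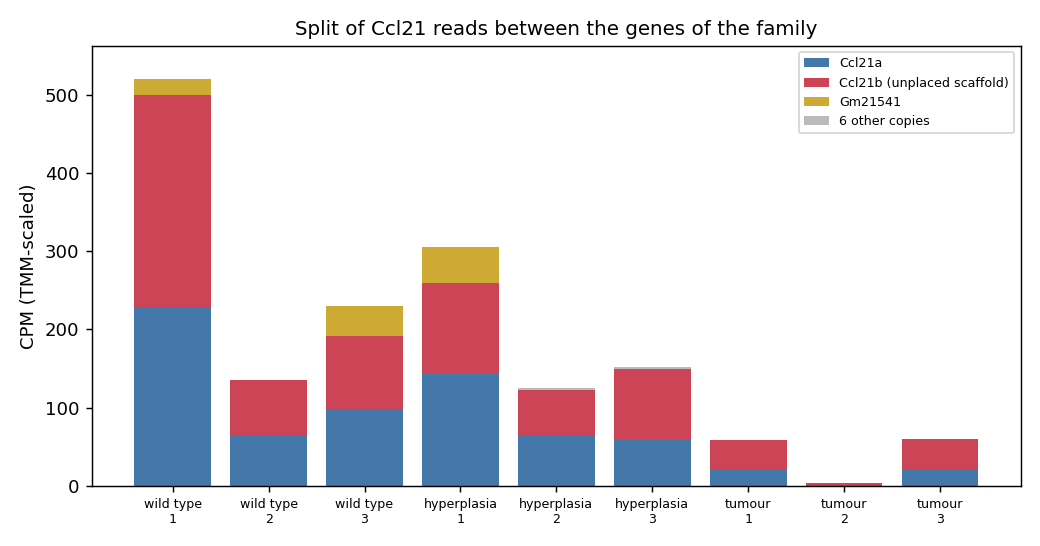
CPM assigned to each of 9 Ccl21 family genes, stacked for the 9 libraries, with the 6 copies that received few reads drawn together. The stacks average 295 CPM for wild type and 40.4 CPM for tumours, tumour 2 is nearly empty, and the part given to Gm21541 appears in 3 libraries only.

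Lymphatic endothelium is a known source of Ccl21. Its 6 markers summed to 162 to 201 CPM in the wild-type libraries, 160 to 216 in hyperplasia, and 38.9 to 219 in the tumours, where the lowest value was tumour 2. Among them 4 of 6 were lower in tumours than in wild type, with Reln (29.2 ± 7.87 to 3.47 ± 0.973 CPM, log2 fold change -3.06, SE 0.47, edgeR, BH adjusted p = 0.0356) and Flt4 (37.6 ± 9.48 to 13.0 ± 1.63 CPM) called. Of all genes tested, 49.1% were lower and 1.25% were called lower. Lyve1 averaged 14.8 ± 9.28 CPM in the wild-type ovaries and 0.625 ± 0.677 in the tumours and was at 0 in tumour 2, while Pdpn averaged 46.8 ± 11 and 103 ± 90.8 CPM. Of the markers named, Pdpn had the largest SD among tumours in CPM. The SD of Lyve1 exceeded its mean there, while those of Reln and Flt4 were well below theirs. The low sum of tumour 2 therefore does not describe Reln and Flt4. Dendritic cell markers summed to 41.3 to 65.2, 59.8 to 87.2 and 26.6 to 79.1 CPM. Their list includes Xcr1, a lower gene that also belongs to the symbol rule, so the list is not fully separate from the chemokine genes. Of the 7, 4 were lower in tumours than in wild type and 3 higher (Zbtb46, Clec9a and Siglech), and 1, Itgax (CD11c), was called, lower. Their part in the Ccl21 values was not tested.

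The interferon-induced CXC chemokines Cxcl9 and Cxcl10 attract activated T cells and natural killer cells through Cxcr3. The 250 bases before their starts are shown with those of Ccl22 and Cxcl14, because these are the ligands with an unadjusted p under 0.05 between tumour and wild type whose promoter in RefSeq's table matched either of 2 motifs known from inflammatory genes. Capitals mark matches, on either strand, to a kappaB-type motif (GGGA and CC with 4 bases of any kind between them) or an interferon-stimulated element (GAAA, 2 bases of any kind, GAAA). Sequences are from RefSeq, GRCm38.p6, written 5′ to 3′ on the gene's strand: Cxcl9 chr5:92328080-92328329 minus, Cxcl10 chr5:92348890-92349139 minus, Ccl22 chr8:94745434-94745683 plus, Cxcl14 chr13:56296552-56296801 minus.
Cxcl9: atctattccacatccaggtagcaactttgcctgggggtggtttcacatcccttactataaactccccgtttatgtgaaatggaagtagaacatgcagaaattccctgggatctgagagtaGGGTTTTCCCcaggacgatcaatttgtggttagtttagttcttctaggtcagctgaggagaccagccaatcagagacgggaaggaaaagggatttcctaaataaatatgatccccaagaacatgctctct
Cxcl10: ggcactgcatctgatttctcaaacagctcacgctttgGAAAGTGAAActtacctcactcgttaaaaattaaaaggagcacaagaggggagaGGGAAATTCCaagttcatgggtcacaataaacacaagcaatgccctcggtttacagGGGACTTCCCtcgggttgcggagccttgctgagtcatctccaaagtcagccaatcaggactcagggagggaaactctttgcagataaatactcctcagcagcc
Ccl22: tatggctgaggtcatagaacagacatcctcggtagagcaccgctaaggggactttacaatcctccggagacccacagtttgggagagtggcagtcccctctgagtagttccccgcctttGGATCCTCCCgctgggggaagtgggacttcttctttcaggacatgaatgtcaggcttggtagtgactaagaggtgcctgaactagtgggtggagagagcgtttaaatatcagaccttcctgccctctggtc
Cxcl14: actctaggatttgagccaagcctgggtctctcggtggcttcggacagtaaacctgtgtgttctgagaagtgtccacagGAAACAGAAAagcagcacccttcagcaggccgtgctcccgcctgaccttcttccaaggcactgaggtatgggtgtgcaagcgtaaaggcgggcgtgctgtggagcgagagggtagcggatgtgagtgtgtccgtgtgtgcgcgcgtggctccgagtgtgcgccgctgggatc
Cxcl9 held the kappaB-type letters at 130 to 121 bases before the start, Ccl22 at 131 to 122, and Cxcl10 at 159 to 150 and at 103 to 94. The interferon-type letters lay at 213 to 204 in Cxcl10 and at 172 to 163 in Cxcl14. RefSeq's table held a promoter for 46 of the 62 symbols, in 53 windows, and for neither Ccl2 nor Ccl7. The kappaB-type letters occurred in 37.7% of these windows (20 windows, 19 symbols) and in 17.6% of all 32851 windows, and the interferon-type letters in 5.66% (Ccl19, Cxcl10 and Cxcl14) and 2.98%. A PU.1-type motif (GAGGAAGT) was found in 1.89% (Cxcr3) against 2.44%, and a C/EBP-type motif (TTGCNNAA) in 13.2% against 9.56%. The forkhead letters GTAAACA were in 0 of the 53 windows and in 3.17% of all. Matches were sought on both strands, the match nearest the start of Cxcl10 reads the same kind on either strand, and some symbols have more than 1 window. The C/EBP-type share (7 windows, 5 symbols) includes overlapping windows of Ccl27a and of its near copy Ccl27b, all with the same TTAAGCAA letters. The same 2 genes also share the kappaB-type letters GGTTCCTCCC. Such windows are not separate sites, so these shares count some letters repeatedly. A match describes letters only.

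Cxcl9 (chr5:92321347-92328079) was measured at 4.58, 1.77 and 2.87 CPM in wild type, 3.91, 3.19 and 1.58 CPM in hyperplasia and 0.794, 0.293 and 0.420 CPM in tumours. The tumours lay below all other libraries (log2 fold change against wild type -2.57, SE 0.60, edgeR, BH adjusted p = 0.0667; against hyperplasia -2.48, SE 0.60, adjusted p = 0.138). Cxcl10 (chr5:92346638-92348889) stood at 8.60, 3.0 and 3.85 CPM, 6.80, 2.68 and 2.97 CPM, and 3.31, 0.683 and 0.588 CPM. Tumour 1 reached the range of the other groups and tumours 2 and 3 did not (-1.73, SE 0.76, edgeR, BH adjusted p = 0.245). Their receptor Cxcr3 was at 2.49, 1.83 and 1.95 CPM in wild type, 3.0, 2.17 and 3.02 CPM in hyperplasia and 1.66, 0.293 and 0.924 CPM in tumours. Only its difference between tumour and hyperplasia had an unadjusted p under 0.05 (-1.48, SE 0.56, edgeR, BH adjusted p = 0.293). The 11 T and NK cell markers summed to 10.1 to 21.1 CPM in the wild-type libraries, 19.6 to 34.3 in hyperplasia, and 6.34 to 10.2 in the tumours, with 8 of 8 tested lower in tumours than in wild type. For that comparison none passed in edgeR, where 0 had an unadjusted p under 0.05, in DESeq2 or in limma-voom. Against hyperplasia all 8 were again lower in tumours (46% of all genes were), with a median log2 fold change of -1.64. There, 5 had an unadjusted p under 0.05 in edgeR (9.39% of all genes were lower so). None was called in edgeR or limma-voom, and DESeq2 called 1 (5.03% of all genes). Between hyperplasia and wild type DESeq2 called 1 (0.111% of all genes). The part of these markers in the chemokine values was not tested.

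Ccl22 and Ccl11 attract lymphocytes and eosinophils. Ccl22 (chr8:94745590-94751699), made mainly by dendritic cells and macrophages and bound by Ccr4, was at 1.54, 0.530 and 1.72 CPM in wild type, 1.5, 0.869 and 0.911 CPM in hyperplasia and 0.199, 0.0975 and 0.0840 CPM in tumours. The 3 tumours held 5 counts in all and did not overlap the other groups (-3.20, SE 0.68, edgeR, BH adjusted p = 0.0553). Its neighbour Ccl17, which shares the receptor, was too low to test and had 74, 30 and 2 counts over wild type, hyperplasia and tumour. The wild-type total came mainly from wild type 1, with Ccl17 at 3.38, 0.0589 and 0.287 CPM in the wild-type libraries. In hyperplasia Ccl17 was at 0.535, 0.652 and 0.527 CPM, above wild types 2 and 3. Ccl11 (chr11:82057823-82062955), eotaxin, was uneven within groups, at 0.547, 0.589 and 5.23 CPM in wild type, 11.2, 1.09 and 5.08 CPM in hyperplasia and 0.132, 0.195 and 0.0840 CPM in tumours. Tumours were again below all others, with 5 counts in all. The fitted differences carried wide errors, at -3.89 against wild type (SE 1.26, edgeR, BH adjusted p = 0.131) and -5.35 against hyperplasia (SE 1.29, edgeR, BH adjusted p = 0.134). Without wild type 3, the wild-type library with the high value, the first was -2.01 (edgeR, BH adjusted p = 0.35). Its receptor Ccr3 had 9, 14 and 0 counts.

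The receptors Xcr1 and Cxcr6, of dendritic cells and resident lymphocytes, averaged highest in hyperplasia. Xcr1 (chr9:123852315-123862029), carried by the cross-presenting type of dendritic cell, was at 0.746, 1.47 and 1.78 CPM in wild type, 2.30, 2.61 and 3.02 CPM in hyperplasia and 0.530, 0.0975 and 0.672 CPM in tumours. The 3 groups did not overlap. The difference of tumours from hyperplasia was -2.56 (SE 0.63, edgeR, BH adjusted p = 0.143) and from wild type -1.58 (SE 0.63, edgeR, BH adjusted p = 0.203). Cxcr6 (chr9:123806475-123811760), the receptor of Cxcl16 on resident T and natural killer T cells, was at 5.72, 3.59 and 3.28 CPM, 11.7, 5.43 and 9.68 CPM, and 2.05, 0.195 and 2.69 CPM. Tumours were below both other groups, and hyperplasia overlapped wild type through its lowest library (tumour against hyperplasia -2.42, SE 0.73, edgeR, BH adjusted p = 0.201). Clec9a, another marker of the dendritic cells that carry Xcr1, named here after its values were seen, averaged 6.50 ± 1.4, 7.21 ± 1.02 and 8.64 ± 7.34 CPM and was at 16.5, 1.95 and 7.48 CPM in the tumours. Zbtb46 and Siglech of the same marker list also averaged highest in tumours. Its other markers averaged highest in hyperplasia and lowest in tumours, as Xcr1 did. Itgax averaged 11.5, 22.9 and 1.91 CPM, Flt3 1.24, 1.97 and 0.689, and Cd209a 1.40, 1.46 and 0.319. The part of these cells in the Xcr1 values was not tested.

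The neutrophil attractants were scarce. Of Cxcl1, Cxcl2, Cxcl3, Cxcl5, Cxcl15 and the receptors Cxcr1 and Cxcr2, only Cxcl1 and Cxcl5 were tested. Cxcl5 was at 0.398, 1.77 and 1.95 CPM in wild type, 0.857, 6.16 and 1.39 CPM in hyperplasia and 0.728, 0.0975 and 0.672 CPM in tumours, with overlap of tumours and wild type (tumour against hyperplasia -2.43, SE 0.98, edgeR, BH adjusted p = 0.312). Cxcl1 ranged from 0.118 to 4.31 CPM within wild type alone. Cxcr1 had 3, 28 and 0 counts and Cxcr2 26, 26 and 10 over the groups. The hyperplasia counts of Cxcr1 came mainly from hyperplasia 1, at 1.28, 0.290 and 0 CPM in the hyperplasia libraries. Neutrophil markers were low too, at 10.5 to 16.7, 15.7 to 35.9 and 8.67 to 20.5 CPM summed, with Ly6g at 0 in wild type and tumours and Ngp at 0 in wild type.

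Some ligands are made by tissue cells without inflammation. Cxcl14 (chr13:56288643-56296551), an epithelial and stromal chemokine whose receptor is not settled, was at 92.1, 54.3 and 114 CPM in wild type, 175, 87.6 and 303 CPM in hyperplasia and 258, 130 and 377 CPM in tumours. Each tumour was above each wild-type library, and hyperplasia overlapped both groups. Among the 37 tested genes it had the highest fitted difference in tumours (log2 fold change 1.55, SE 0.52, edgeR, BH adjusted p = 0.142), and the mean of both lesion groups was above wild type by 1.34 on the same scale (edgeR, BH adjusted p = 0.309). With a term for the title stem shared by hyperplasia 3 and tumour 3, the libraries with the highest Cxcl14 of their groups, the tumour difference was 1.12 (edgeR, BH adjusted p = 0.248). Surface epithelium markers summed to 245 to 269 CPM in wild type, 232 to 727 in hyperplasia and 1646, 2.63 and 664 in the 3 tumours, and their part in the Cxcl14 values was not tested.

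Cxcl12 (chr6:117168535-117181367), SDF-1, which holds stem cells and lymphocytes in tissue through Cxcr4, was at 103, 108 and 63.5 CPM in wild type, 190, 99.3 and 81.9 CPM in hyperplasia and 33.3, 206 and 74.1 CPM in tumours. The tumours spanned both the lowest and the highest of the 9 libraries, and the fitted difference from wild type was 0.19 (SE 0.59). Without tumour 2 it was -0.77 (edgeR, BH adjusted p = 0.371). Cxcr4 was at 11.4, 16.5 and 10.4 CPM, 12.4, 13.5 and 23 CPM, and 4.37, 10.1 and 23.4 CPM, again with the tumours spread across the range of the other groups. Ackr3, which takes up Cxcl12 as a scavenger, was at 29.4, 12.5 and 16.6 CPM, 27.3, 17.2 and 36.0 CPM, and 20.7, 15.6 and 38.2 CPM. None of these 3 genes had an unadjusted p under 0.05 in any comparison, and the smallest adjusted p for tumour against wild type was 0.711 (edgeR, BH). Their SEs for that comparison were 0.44 to 0.59 on the log2 scale, so a difference of such a size was not detectable here. The 8 blood endothelium markers summed to 497 to 629 CPM in the wild-type libraries, 389 to 560 in hyperplasia, and 273, 541 and 317 in the tumours, of which the highest was tumour 2, as for Cxcl12. Within wild type their sum was lowest in wild type 2, where Cxcl12 was highest. Fibroblast and stroma markers summed to 5179, 1514 and 5228 CPM in the tumours, and smooth muscle and pericyte markers to 555, 457 and 1139. Both were lowest in tumour 2. The part of any of these markers in the Cxcl12 values was not tested.

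Cxcl16 and Cx3cl1 are made as membrane-bound chemokines that also hold leukocytes in place. Cxcl16 was at 28.2, 20.7 and 22.9 CPM in wild type, 29.0, 20.3 and 23.7 CPM in hyperplasia and 19.5, 27.7 and 18.0 CPM in tumours (log2 fold change -0.14, SE 0.25). Cx3cl1, fractalkine, was at 17.6, 19.8 and 18.2 CPM, 22.8, 17.6 and 16.1 CPM, and 14.0, 27.2 and 15.5 CPM (0.03, SE 0.30). In CPM, tumour 2 was the highest tumour for both and the groups overlapped. Without tumour 2 the value of Cx3cl1 was -0.33. In TPM this held for Cx3cl1 but not for Cxcl16. The TPM of Cxcl16 was 18.7, 17.47 and 19.41 in the tumours, so tumour 2 was the lowest. All 3 tumours were below the lowest other library in TPM (22.26, hyperplasia 2), so the overlap of Cxcl16 depended on the scale. Cx3cr1, the fractalkine receptor of resident macrophages, was at 14.0, 27.3 and 14.8 CPM in wild type, 8.46, 17.1 and 11.1 CPM in hyperplasia and 14.7, 13.1 and 9.41 CPM in tumours. Its fitted difference of -0.59 (SE 0.37) did not pass (edgeR, BH adjusted p = 0.421), and its tumours overlapped the wild-type range, unlike those of Ccr2. The difference between the responses of Cx3cr1 and Ccr2 was not tested. Ccl27a, an epithelial ligand of Ccr10 and a near copy, was at 10.5, 3.89 and 6.27 CPM, 4.77, 5.07 and 5.85 CPM, and 5.83, 7.22 and 5.54 CPM, with overlap throughout.

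**Figure D4:**
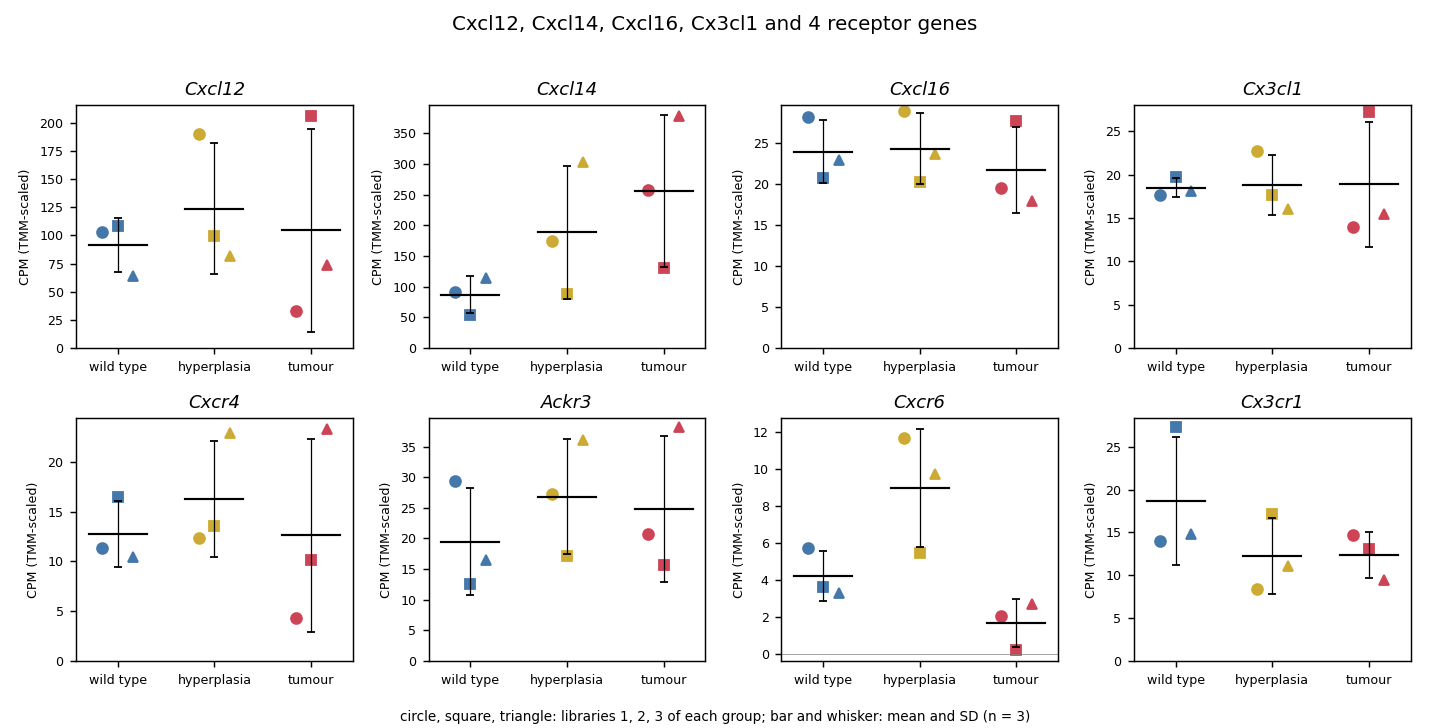
CPM of Cxcl12, Cxcl14, Cxcl16 and Cx3cl1 and of the receptors Cxcr4, Ackr3, Cxcr6 and Cx3cr1 in each library, with the mean (horizontal line) and SD (whisker) of each group of 3. Cxcl14 is higher in all 3 tumours (130 to 377 CPM) than in wild type (54.3 to 114 CPM), Cxcr6 is lower in all 3, and the groups of the other 6 genes overlap.

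Among the atypical receptors, Ackr2, which removes inflammatory CC chemokines and is known from lymphatic endothelium, was at 1.29, 1.06 and 2.53 CPM in wild type, 2.46, 1.52 and 1.25 CPM in hyperplasia and 0.596, 0.780 and 0.672 CPM in tumours. The tumours lay below all other libraries (-1.25 against wild type, SE 0.51, edgeR, BH adjusted p = 0.215; -1.35 against hyperplasia, SE 0.51, adjusted p = 0.293). Ackr4, which scavenges Ccl19, Ccl21 and Ccl25, averaged 1.34 ± 0.278, 0.738 ± 0.267 and 1.10 ± 0.62 CPM. Its hyperplasia libraries were below all wild-type ones. Ackr1, the chemokine-binding receptor of red cells and venules, had 25, 35 and 9 counts and was not tested. The epithelial CC group (Ccl25, Ccl27a, Ccl28 and Ccr10 tested) had fitted differences of -0.41 to 0.36 and no unadjusted p under 0.05 for tumour against wild type. Cxcl13, the B cell attractant, ranged from 0 to 3.12 CPM over the 9 libraries, with a fitted difference of 0.02 (SE 1.27) that was -1.34 without tumour 3. B cell markers summed to 20 to 73.4 CPM in the wild-type libraries, 10.3 to 42.7 in hyperplasia, and 1.43 to 4.39 in the tumours, with Jchain called lower in tumours.

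A further 30 genes were not tested, and the highest group mean among them was 1.24 CPM (Ccl17 in wild type). Ccl20, Ccl26, Cxcl15, Ccl27b and the scaffold copy of Ccl19 had 0 counts in all 9 libraries, and the other 25 had at least 1 count. Of those, 9 had 0 counts in the 3 tumours (Ccl21b, its copy on scaffold JH584293.1, Ccl21c, Ccr1l1, Ccr3, Ccr8, Cxcl17, Cxcl2 and Cxcr1). The first 3 of these also had 0 counts in wild type. Each held the same expected counts, 5.74 in hyperplasia 2 and 14.8 in hyperplasia 3, as reads shared out between copies. A count of 0 over the 3 tumours allows up to 0.0805 CPM, counting error only. The symbols Cxcl11, Ccl19-ps1 and Ccl19-ps3 fit the letters of the rule but are not annotated as protein-coding, and were left out.

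Per transcript length, the makeup of the ligand pool differed between groups. The deposited TPM values of the ligand genes, with the Ccl21 genes of the symbol rule summed and the Gm copies not included, added up to 1107, 749 and 882 TPM in the wild-type libraries, 1187, 713 and 906 in hyperplasia, and 476, 245 and 676 in the tumours. All tumours were below all other libraries. These Ccl21 genes made up 59.2% ± 13.3 of the wild-type total (SD, n = 3), 47.4% ± 6.95 in hyperplasia and 17.1% ± 13.6 in tumours. Cxcl14 made up 8.90% ± 3.99, 20.2% ± 10.9 and 45.5% ± 13.1, and led in tumours 1 and 3. In tumour 2 the leading ligand was Cxcl12, at 37.7% of the total, against 4.07% and 7.84% in the other tumours. Receptor genes, atypical ones included, added up to 39.1, 69.5 and 48.0 TPM in the wild-type libraries, 70.8, 58.5 and 76.8 in hyperplasia, and 33.1, 20.3 and 63.8 in the tumours. By mean TPM in wild type the order was Cxcr4 (13.9 ± 7.65), Ackr3 (9.45 ± 1.84), Cx3cr1 (8.32 ± 4.48), Ccr2 (5.34 ± 2.93) and Cxcr6 (3.52 ± 0.254), and each differed from the next by less than the larger of their SDs. Shares of a total are tied to each other, so a smaller Ccl21 share raises the others.

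**Figure D5:**
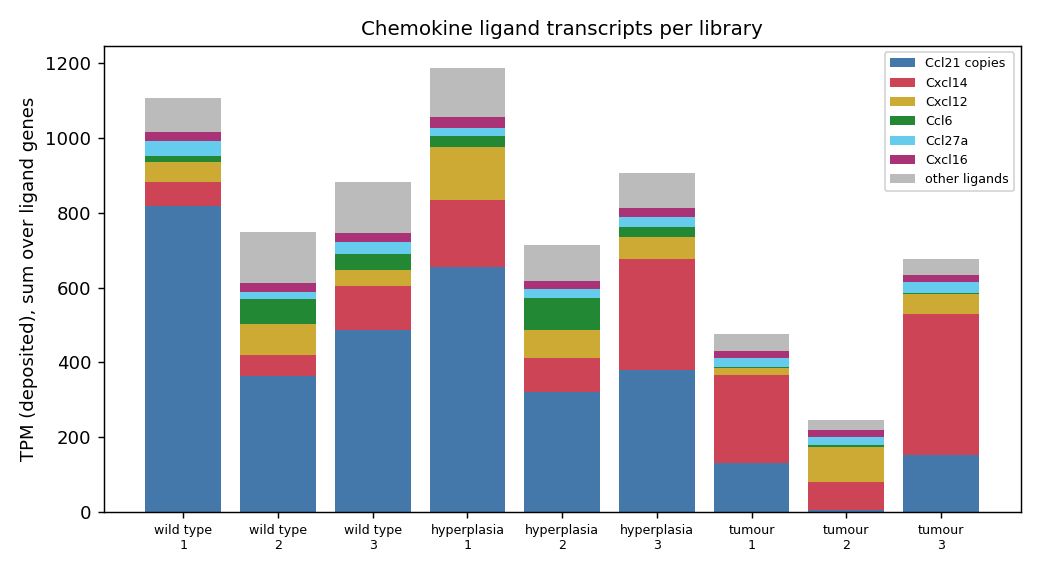
Deposited TPM of the chemokine ligand genes in each library, stacked by gene, with the Ccl21 genes of the symbol rule summed and less abundant ligands drawn together in grey. Totals are 245 to 676 TPM in tumours and 713 to 1187 TPM elsewhere, and the largest part is Ccl21 in wild type and hyperplasia and Cxcl14 in tumours 1 and 3.

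Between hyperplasia and wild type, no gene of the 16213 passed the threshold in edgeR (0% called, 3.53% with an unadjusted p under 0.05). The DESeq2 Wald test called 18 (0.111%) and limma-voom 0. None of the 37 chemokine and receptor genes was called by any of these tests. Of the 37, 21 had a lower and 16 a higher fitted level in hyperplasia (50.3% of all genes were lower), with a median log2 fold change of -0.11. Only Ccl7 had an unadjusted p under 0.05, where 2.12% of all genes were lower at that level (-1.47, SE 0.60, edgeR, BH adjusted p = 0.999), and its hyperplasia libraries overlapped wild type. Ccr1 and Xcr1 were higher and Ackr4 lower without overlap, where 4.63% of all genes were higher and 5.18% lower in that way.

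Between tumour and hyperplasia, 31 of the 37 were again lower in tumours (46% of all genes were), with a median of -1.40 beside 0.05 over all genes. None of the 37 passed in edgeR (0.185% of all genes did, 30 genes, all lower) and none in limma-voom (0.0247% of all genes). At an unadjusted p under 0.05 there were 16, all lower (9.39% of all genes). The DESeq2 Wald test called 11 (5.03% of all genes), and edgeR without the low-count filter 2 (0.69% of all genes). Groups did not overlap for 20 genes, all lower (12.4% of all genes). This comparison uses the same 3 tumours as the one with wild type, so the pair does not count as separate evidence. Among genes not yet given for it, the log2 fold changes of Ccl9, Ccl22, Ccl7, Ccr2 and Ccl21a were -2.30, -2.99, -3.23, -1.38 and -2.62 (SE 0.49, 0.68, 0.74, 0.36 and 0.95), with edgeR, BH adjusted p between 0.0959 and 0.273. That of Ccl2 was -2.08 (SE 0.65, edgeR, BH adjusted p = 0.221). When the lesion groups were averaged and set against wild type, 2 genes in all passed (0.0123% of those tested) and 0 of the 37. The fitted level was lower for 30 of the 37 (50.9% of all genes). Here 12 of the 37 had an unadjusted p under 0.05, 11 of them lower (7.88% of all genes) and 1 higher (3.97% of all genes), and Ccl7 had the smallest adjusted p (-3.08, SE 0.53, edgeR, BH adjusted p = 0.078), followed by Ccl2 (-1.97, SE 0.51, edgeR, BH adjusted p = 0.152). The DESeq2 Wald test called these 2 genes (3.65% of all genes), limma-voom 0 (1.22%), and edgeR without the low-count filter 1 (1.15%).

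The machinery around the chemokines was described from 3 lists of related genes. For comparison, 49.1% of all genes tested were lower in tumours than in wild type, and edgeR called 1.6%. At an unadjusted p under 0.05, 11.7% of all genes were lower and 8.41% higher. The DESeq2 Wald test called 10.8% of all genes and limma-voom 1.67%. Of 16 chemokine-like ligands and receptors whose symbols fall outside the rule, 15 were tested, 9 were lower in tumours than in wild type and the median log2 fold change was -0.13. None was called in edgeR (2 lower and 2 higher at an unadjusted p under 0.05), while the DESeq2 Wald test called 3 and limma-voom 1. The smallest adjusted p-values belonged to genes that were higher in tumours. Cmtm3, a chemokine-like membrane protein, averaged 112 ± 22.8 CPM in wild type and 250 ± 19.8 in tumours (1.16, SE 0.25, edgeR, BH adjusted p = 0.0553). Rarres2, chemerin, averaged 167 ± 84.1 and 518 ± 155 CPM (1.63, SE 0.44, edgeR, BH adjusted p = 0.0888). Of 44 genes of receptor signalling, all tested, 26 were lower and the median was -0.22. None was called in edgeR (12 lower and 1 higher at an unadjusted p under 0.05) or limma-voom, and the DESeq2 Wald test called 8. The leukocyte-specific signalling genes Plcb2 (-2.31, SE 0.51, edgeR, BH adjusted p = 0.0599) and Rac2 (-1.22, SE 0.30, edgeR, BH adjusted p = 0.0706) had the smallest values. Of 17 genes of leukocyte adhesion and arrest, 16 were tested, 11 were lower, the median was -0.95, and 1 fell past the threshold. That gene was Itgb2, the beta chain of the leukocyte integrins that chemokine signals switch on, which averaged 28.3 ± 2.94 CPM in the wild-type libraries, 45.6 ± 22 in hyperplasia, and 6.06 ± 0.547 in the tumours (-2.23, SE 0.33, edgeR, BH adjusted p = 0.0321). It also fell against hyperplasia (-2.91, SE 0.34, edgeR, BH adjusted p = 0.0305).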

How the data were processed

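RNA was extracted from dissected ovaries with Trizol and sequenced from stranded TruSeq mRNA libraries, per the labels' protocols. RSEM 1.3.1, STAR 2.7.1a, FastQC, Picard 2.8.1 and build GRCm38 are listed, without roles, per the submitters' processing notes. The authors' deposited gene tables hold expected counts, TPM and FPKM, per the file headers; FPKM was not used in any test. The deposited expected counts are not normalised. Of values above 0, 25.6% were not whole (16.9% for the chemokine and receptor genes), since reads that fit several genes are shared out, which makes near copies uncertain. TPM as deposited, which corrects for length and depth, was used for comparing levels between genes and in an alternative test. All 55536 identifiers were found in GENCODE M21.

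Expected counts were rounded and fitted with edgeR 4.0.16 (R 4.3.3): TMM factors of 0.797 to 1.08, filterByExpr (count minimum 10, total minimum 15), which left 16213 genes, and 1 quasi-likelihood fit over 9 libraries in 3 groups, with a common biological coefficient of variation of 0.432. P-values were BH adjusted over all genes, with a threshold of 0.05. In a single library, 3 counts (the floor) equal 0.144 to 0.293 CPM. Alternatives were DESeq2 1.42.0 (Wald test, size factors), limma 3.58.1 (voom, and log2(TPM + 1)), no filter, a fit of only the groups compared, each library left out, wild type 1 and tumour 2 left out together, a term for the shared title stem, and, chosen after seeing the data, the Ccl21 copies summed. The labels carry no replicate numbers, so samples are numbered in accession order and not paired.

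Near copies were found as shared 50-base windows of GENCODE transcripts. Genes on scaffolds were flagged without a comparison of sequence, and those of the Ccl21 family were joined by name. Per-library values are given for genes with an unadjusted p under 0.05 in any comparison or a group mean of at least 5 CPM, and genes of the lists are named where called or among the 2 smallest p-values of a list, unless said otherwise. Genes of the marker lists beyond these that are named (Lyve1, Pdpn, Clec9a, Zbtb46, Siglech, Flt3) were picked after their values were seen. The genes described and all lists were chosen with earlier results of these data known. The values of 1 receptor gene, which stays in the counts and sums over all of these genes, are not reported here.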

Additional observations from a re-analysis of the deposited data

How the results depend on the processing

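For tumour against wild type, 1 of the 37 tested chemokine and receptor genes passed in the main test, and this count moved with the method: 13 with the DESeq2 Wald test, 5 of 62 without the low-count filter (Ccl2, Ccl6, Ccl7, Ccl9 and Ccl22), 2 with limma on log2(TPM + 1) (Ccl6 and Ccl7), 0 with limma-voom, 0 with a replicate block for the shared title stem and 0 without wild type 1 and tumour 2 together. Leaving out single libraries gave 0 to 1. Over all genes, the 259 calls of edgeR stood against 1747 with DESeq2, 721 without the filter, 428 on log2(TPM + 1) and 271 with limma-voom, and the cause was not tested. For tumour against hyperplasia 0 in edgeR became 11 with DESeq2 and 2 without the filter (Ccl6 and Ccl11), and all genes 30 became 816 and 199, with 76 on log2(TPM + 1) and 4 with limma-voom. For the mean of both lesion groups 0 became 2 with DESeq2 and 1 without the filter (Ccl7), and all genes 2 became 591 and 331, with 173 on log2(TPM + 1) and 198 with limma-voom. For hyperplasia against wild type 0 stayed 0 in every alternative run for these genes, while over all genes 0 became 18 with DESeq2, 2 without the filter and 1 on log2(TPM + 1).

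No fitted value of a gene with an unadjusted p under 0.05 in that comparison changed sign in any alternative run. Of the 9 other genes followed for tumour against wild type (Cxcl12, Cxcl13, Cxcl16, Cx3cl1, Cxcr4, Cxcr6, Cx3cr1, Ackr3 and Ccl27a), 6 did, and their direction is not settled. Leaving out libraries, singly or wild type 1 with tumour 2, gave log2 fold changes of -0.77 to 0.62 for Cxcl12, -1.34 to 1.33 for Cxcl13, -0.39 to 0.21 for Cx3cl1, -0.82 to 0.40 for Cxcr4, -0.10 to 0.99 for Ackr3 and -0.45 to 0.29 for Ccl27a. With limma-voom Cxcl12, Cxcl13 and Cx3cl1 stood at -0.17, -0.33 and -0.066, and on log2(TPM + 1) Cxcl12 and Cxcl13 at -0.34 and -0.038. Cxcl13 was at -0.0043 with DESeq2, -0.0021 without the filter and -0.12 with the replicate block, which gave -0.039 for Ackr3, and Cx3cl1 was at -0.00022 in the fit of only the groups compared. The cause was not tested. Ccl7, tumour against wild type, ranged from -5.09 to -2.72, the latter on the log2(TPM + 1) scale, and lost its call in 9 of 18 alternatives, with edgeR or limma, BH adjusted p up to 0.124. With the replicate block its adjusted p was 0.0542 (edgeR, BH), at a log2 fold change of -4.86. Ccl9 ranged from -2.75 to -1.56, Ccr2 from -1.78 to -1.17 and Cxcl14 from 1.12 to 1.89. A fit of only the groups compared does not exist for the mean of both lesion groups, which uses all 3. Low counts limit Ccl7, Ccl11 and Ccl22 in tumours, with 5 counts each over 3 libraries, and whether the 30 untested genes differ was not detectable at this depth.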
